A study of Mus musculus with 4 samples.

Results

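The 8 meiosis genes followed here were the entry factors Dazl and Stra8, the meiotic cohesin genes Rec8 and Smc1b, the chromosome axis and synapsis genes Hormad1, Sycp1 and Sycp3, and the recombinase gene Dmc1. The 8 genes were taken by name, with every probe that carried a RefSeq accession of theirs. This gave 10 probes for 7 of the 8 genes, among 41153 probes and 18322 named genes in all, and no probe was matched to Sycp3. Cells sorted for the reporter mVenus, whose transgene is built on Blimp1 (Prdm1), came from genital ridges of mouse embryos at embryonic day 11.5. HP1γ-null pools (HP1g-/-, a gene-trap allele of Cbx3) and wild-type pools were compared, 2 pools of each, and both genotypes carried Blimp1-mVenus tg. Each pool held RNA of 5 or 6 embryos with 500 to 3500 sorted cells per embryo, and 4 ng was amplified for a one-colour Agilent array. The labels do not give the sex of the pooled embryos, and a pool mixes embryos, so no value belongs to 1 embryo.

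Primordial germ cells are the precursors of eggs and sperm, and at the stage sampled they still divide by mitosis. Entry into meiosis follows some days later in the female gonad, when retinoic acid and other signals induce Stra8 in germ cells made competent by the RNA-binding protein Dazl. Meiotic chromosomes are then held by cohesins that contain Rec8 and Smc1b, axis proteins such as Hormad1 and Sycp3 load onto them, Sycp1 links the paired axes as the transverse filament of the synaptonemal complex, and Dmc1 carries out strand exchange. In mitotic cells several such genes are held silent by promoter DNA methylation and by a Polycomb complex that contains Max, Mga, E2f6, L3mbtl2 and Pcgf6. HP1γ has been found in that complex, and it also binds histone H3 methylated at lysine 9.

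Upstream sequences are shown for Dazl, Rec8, Sycp1 and Hormad1. The levels of the first pair departed from the order of the germ cell markers, as did those of Stra8 and Hormad1. The second pair carries the element that the complex's Max and Mga subunits can bind. The bases are the 250 before the annotated start, from RefSeq on build GRCm38.p6, written 5′ to 3′ on the gene's strand. Capitals mark the E-box CACGTG and the E2F element GGCGGGAA, searched on both strands, which did not overlap each other here. The windows are chr17:50293621-50293870 (minus strand) for Dazl, chr14:55617916-55618165 (plus) for Rec8, chr3:102936101-102936350 (minus) for Sycp1 and chr3:95559427-95559676 (plus) for Hormad1.
Dazl: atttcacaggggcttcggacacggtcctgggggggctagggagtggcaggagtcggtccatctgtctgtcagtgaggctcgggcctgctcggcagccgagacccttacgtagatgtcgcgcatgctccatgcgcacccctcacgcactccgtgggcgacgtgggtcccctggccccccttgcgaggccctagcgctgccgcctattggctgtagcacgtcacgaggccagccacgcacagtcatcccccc
Rec8: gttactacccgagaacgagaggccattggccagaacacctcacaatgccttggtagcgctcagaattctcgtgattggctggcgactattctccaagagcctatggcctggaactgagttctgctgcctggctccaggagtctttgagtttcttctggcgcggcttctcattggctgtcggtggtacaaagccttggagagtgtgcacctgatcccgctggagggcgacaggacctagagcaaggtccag
Sycp1: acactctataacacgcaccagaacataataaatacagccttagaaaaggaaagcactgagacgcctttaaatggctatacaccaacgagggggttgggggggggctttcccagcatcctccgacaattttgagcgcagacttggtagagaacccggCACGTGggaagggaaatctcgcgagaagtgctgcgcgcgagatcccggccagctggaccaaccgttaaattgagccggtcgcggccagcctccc
Hormad1: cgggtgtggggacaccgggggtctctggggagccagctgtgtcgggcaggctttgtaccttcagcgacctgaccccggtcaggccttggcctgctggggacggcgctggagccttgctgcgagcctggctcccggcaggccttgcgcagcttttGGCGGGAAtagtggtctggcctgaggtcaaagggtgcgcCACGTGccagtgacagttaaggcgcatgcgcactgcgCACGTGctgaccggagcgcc

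The E-box stood once in the Sycp1 window, its first base 94 before the start, and 2 times each in the windows of Hormad1 (57 and 20 before) and Sycp3 (64 and 43 before). Of all 32851 mouse windows of the same length, 6.02% held it. The windows of Dazl, Stra8, Rec8, Dmc1 and Smc1b held neither element in these letters. The E2F element was found in the Hormad1 window, its first base 96 before the start, and in 1.86% of all windows. CpG dinucleotides, the sites of DNA methylation, numbered 25 in the Smc1b window, 20 in Dazl, 19 in Hormad1, 17 in Sycp1, 12 each in Sycp3 and Dmc1, 10 in Rec8 and 5 in Stra8, against a median of 6 over all windows (quartiles 2 and 16). A match of letters is a description and marks no binding site.

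Levels below are log2 processed signals minus the array's own 75th percentile, so 0 is the level of that percentile and dim probes read below 0. The scanner software marks a spot as well above background or not, and values without that mark have no order among themselves. The lowest marked signal was -3.56 and -4.84 on the null arrays 1 and 2 and -3.68 and -4.11 on the wild-type arrays 1 and 2. The 75th percentile itself was 125 and 291 intensity units on the null arrays, against 188 and 219 on the wild-type arrays. The targeted gene Cbx3 read -1.95 and -1.59 on the null arrays by probe A_51_P160328, against 4.80 and 5.07 on the wild-type arrays (difference -6.70, limma adjusted p = 0.044). That call was lost without any single array, at an adjusted p of 0.068 to 0.20. A second Cbx3 probe, A_51_P117162, differed by -7.82 and was not called (limma adjusted p = 0.099). In all, limma called 2 of 22440 tested probes, 0.00891%, with 1685 (7.51%) at an unadjusted p under 0.05.

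The germ cell markers differed within genotype, and their part in the values below was not tested. Of 12 germ cell markers with a probe, 11 were tested, and 10 of these read higher on null array 1 than on both wild-type arrays. On null array 2, 10 read lower than on both wild-type arrays. Between the wild-type pools, 10 of the 11 read higher in replicate 1. The summed linear level of the 12 markers was 217.6 and 3.02 on null arrays 1 and 2, against 53.6 and 18.7 on wild-type arrays 1 and 2. A linear sum is weighted to the brightest gene. That gene was Dppa5a on null array 1 (7.45) and the wild-type arrays (5.37 and 3.66), and Prdm1 on null array 2. On null array 2, 5 of the 12 markers were well above background, where 63.3% of all spots were. The count was 12 on null array 1 and 11 on each wild-type array. Dppa3, Pou5f1, Ddx4 and Tfap2c were among those not marked on null array 2. Among those marked there were Prdm1, at 0.65, and Tdrd1, which at -2.79 read above both wild-type arrays (-3.26 and -3.71). Endothelial and leukocyte markers were bright in every pool (10 and 9 genes, each above background on all arrays, with summed levels of 203 to 268 and 215 to 232 in null pools, against 359 to 398 and 231 to 269 in wild-type pools). The labelled germ cell sort thus also carried RNA of other cell types, and in bulk RNA fewer cells of a type and less RNA per cell cannot be told apart.

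**Figure D1:**
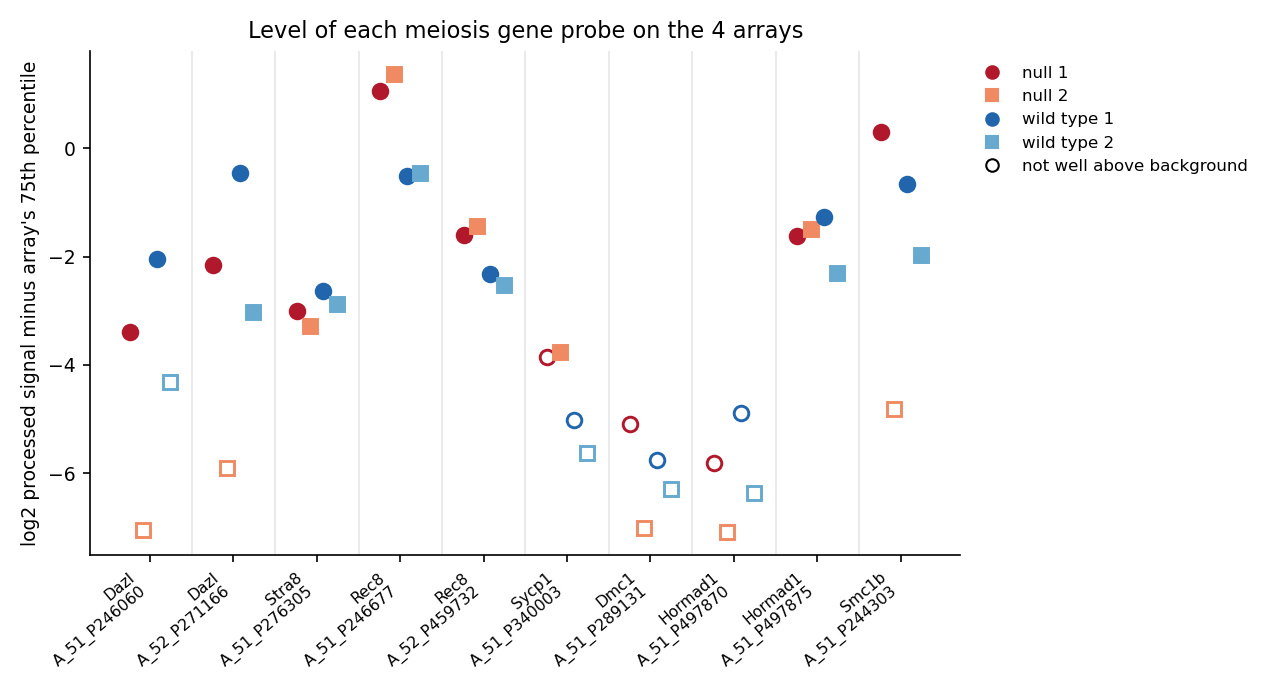
Level (log2 processed signal minus the array's 75th percentile) of each of the 10 probes on the 4 arrays, HP1γ-null in red and orange and wild type in blue, with open symbols for spots not well above background. Both Rec8 probes sit higher on the 2 null arrays than on the 2 wild-type arrays, the brighter Dazl probe and Smc1b are open and lowest on null array 2, and Dmc1 is open on all arrays.

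Of the 10 probes, 4 were well above background on all arrays (Stra8, both Rec8 probes and A_51_P497875 of Hormad1), 4 on some and 2 on none. By array, 7 and 5 of the 10 were above background in null replicates 1 and 2, against 7 and 6 in wild-type replicates 1 and 2. Over all spots that are not controls the shares were 53.8% and 63.3%, against 53.3% and 56.7%. The 6 probes above background on both arrays of a genotype were tested, covering Dazl, Stra8, Rec8, Hormad1 and Smc1b. None passed the threshold of 0.05 after Benjamini-Hochberg adjustment in limma, and 2 of them, both of Rec8 and both higher in null pools, had an unadjusted p under 0.05, as had 4.22% of all tested probes in that direction. In 3 of the 6 the genotypes did not overlap, where 38.2% of all tested probes did not.

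Rec8 encodes the meiosis-specific kleisin, the subunit that closes the cohesin ring in place of Rad21. By its brighter probe, A_51_P246677, it read 1.05 and 1.38 on the null arrays, against -0.51 and -0.46 on the wild-type arrays. Both null pools lay above both wild-type pools, and the gap between genotypes exceeded the gap between pools of either genotype. The difference was 1.69 with SE 0.22 (95% interval 1.11 to 2.28), or 3.24-fold, and missed the threshold (limma adjusted p = 0.20, unadjusted p = 0.00098). By unadjusted p it was the 98th among probes with a positive difference, and 3.92% of all tested probes were likewise at least 2-fold higher in null pools without overlap (1.07% were at least 2-fold lower).

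The dimmer Rec8 probe, A_52_P459732, pointed the same way. It read -1.59 and -1.43 on the null arrays, against -2.33 and -2.52 on the wild-type arrays. The difference was 0.91 with SE 0.21 (limma adjusted p = 0.49, unadjusted p = 0.0091), which is 0.78 log2 units less than by the brighter probe. Its genotypes did not overlap either, as held in the higher direction for 15.1% of all tested probes. The Rec8 difference was of like size against either null pool, at 1.53 with null replicate 1 alone and 1.86 with null replicate 2 alone for the brighter probe, and 0.83 and 1.00 for the dimmer. It kept its sign but fell to 1.15 and 0.37 with scaling to spiked-in control RNA, under which the median of all tested probes was -0.61 instead of -0.06.

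Rec8 did not run in the order of the germ cell markers, and its highest level was on null array 2, where their summed level was lowest. Of markers of other cells, those of endothelium were lower in null pools, those of gonadal soma differed in both directions, and those of leukocytes had a median difference of -0.08. Of 10 endothelial genes all were lower in null pools, 9 without overlap, where 23.0% of all tested probes were lower without overlap, with a median difference of -0.70. Of 10 gonadal somatic genes 4 were tested, 3 of them higher in null pools, and the summed level of the 10 was 3.50 and 7.84 in null pools, against 2.95 and 1.62 in wild-type pools. The 4 tested genes differed by 2.14 for the receptor gene Amhr2, 1.79 for Wnt4, 1.00 for Wt1 and -0.91 for Cbln1. None was called (limma adjusted p = 0.45, 0.45, 0.84 and 0.73). For Wnt4 neither wild-type spot was marked, so 1.79 and its p count unmarked values and give no measured size. With these spots held at the lowest marked signal of their arrays, Wnt4 was at least 3.02-fold higher in null pools. Gonadal markers above background numbered 4 and 10 on the null arrays, against 4 and 4 on the wild-type arrays. Of all spots that are not controls, 53.8% and 63.3% were above background on the null arrays, against 53.3% and 56.7%, so null array 2 marked the most spots of any kind. The 8 stromal genes had a median difference of -1.06 with null replicate 1 alone and 2.07 with null replicate 2 alone, none without overlap, with summed levels of 11.1 and 84.3 in null pools, against 24.1 and 9.97 in wild-type pools. The part of these cells in the Rec8 signal was not tested. Among 11384 other named genes above background on at least 3 arrays, those whose 4 centred levels lay nearest to Rec8's were Spon2, a matrix protein gene, and the cystatin-type genes Cstdc4 and Stfa2l1 (root mean square differences 0.089, 0.092 and 0.11). In all, 49 genes lay within 0.3, so over 4 arrays this profile is shared by many.

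Smc1b encodes the meiosis-specific partner of Smc3 in the cohesin ring. It read 0.31 on null array 1 and -4.82 on null array 2, where it was not well above background, against -0.66 and -1.98 on the wild-type arrays. The null pools thus bracketed the wild-type pools. The difference of -0.94 had an SE of 1.79 (limma adjusted p = 0.96), and it was 1.63 with null replicate 1 alone. With null replicate 2 alone it was -3.50, a limit, since the spot was not marked. The order of the arrays, null 1 over wild type 1 over wild type 2 over null 2, was that of most germ cell markers. The nearest profiles were those of Cpeb1, which encodes an RNA-binding protein that controls translation in germ cells, Trap1a and Rps6kl1 (root mean square differences 0.18, 0.38 and 0.45), but these count unmarked values on null array 2. With unmarked spots held at that array's lowest marked signal, Ddx4 and Cpeb1 were nearest at 0.33 each and no gene lay within 0.3.

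Dazl, the RNA-binding protein that licenses germ cells for sexual differentiation, also spread widely within each genotype. By probe A_52_P271166 it read -2.15 on null array 1 and -5.91 on null array 2, where it was not well above background, against -0.45 and -3.02 on the wild-type arrays. The second probe, A_51_P246060, gave -3.39 and -7.05 in null pools, against -2.05 and -4.32 in wild-type pools, above background only in replicate 1 of each genotype, so it was not tested. The difference by the first probe was -2.29 with SE 1.54 (limma adjusted p = 0.82, 95% interval -6.42 to 1.83). With null replicate 1 alone it was -0.41. With null replicate 2 alone it was -3.11 or lower, taking the lowest marked signal of that array in place of the unmarked spot.

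The order of the arrays for Dazl differed from that of the germ cell markers. Null replicate 1 read 1.70 log2 units lower than wild-type replicate 1 for Dazl, while 11 of the 12 germ cell markers read higher there, by 0.24 to 2.90. The exception among the markers was Mael, a piRNA pathway gene, at -1.10. Mael was also listed nearest to Dazl in profile among the 11384 genes compared (root mean square difference 0.43), with the phospholipid synthesis gene Gpat2 and Cpeb1 next at 0.98 each. Neither Dazl nor Mael was marked on null array 2, and these differences over 4 arrays count the unmarked values there. With unmarked spots held at the lowest marked signal, Mael was at 0.33, and Nefh and Vmn1r214 were next at 0.67 and 0.78. Smc1b read 0.97 higher in null replicate 1 than in wild-type replicate 1. Each of these values rests on 1 array against another and has no test.

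**Figure D2:**
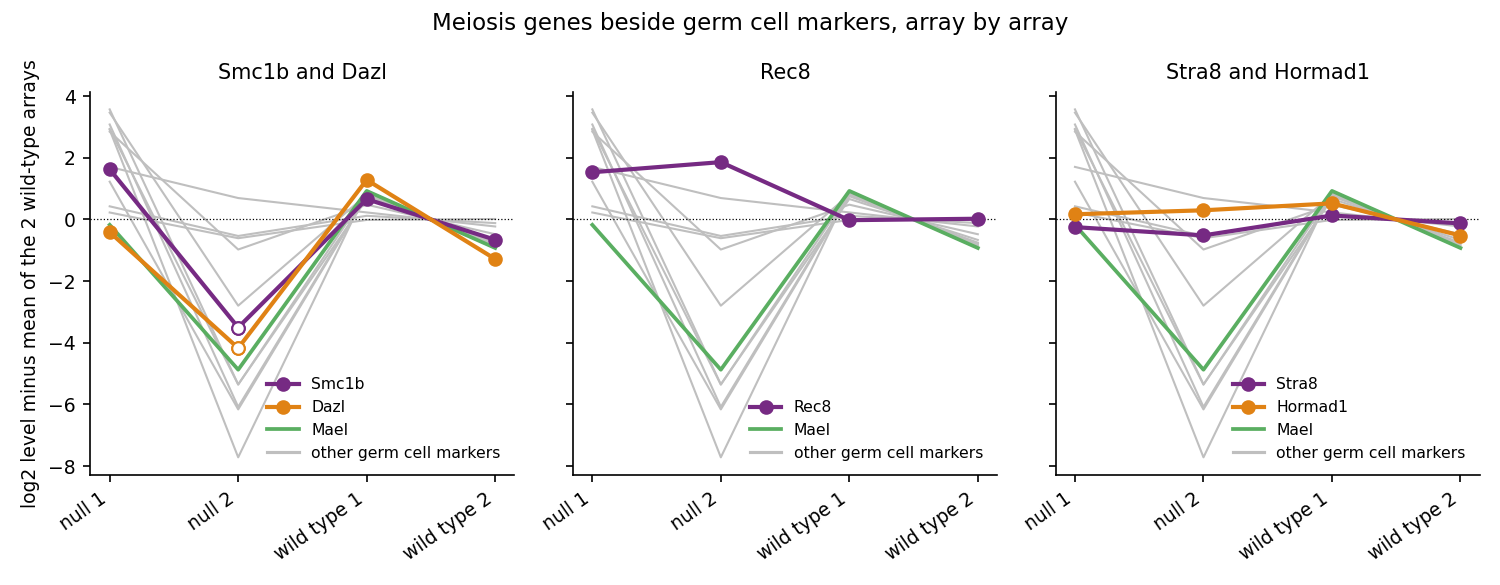
Level of 5 meiosis genes (brightest probe each) on the 4 arrays, as the log2 difference from the mean of the wild-type arrays, with 11 tested germ cell markers in grey or, for Mael, green, and open symbols for spots of the meiosis genes not well above background. Smc1b follows the markers, Dazl at -0.41 and Mael at -0.17 lie near the wild-type mean on null array 1 and under it, unmarked, on null array 2, Rec8 is high on both null arrays, and Stra8 and Hormad1 stay within about 1 log2 unit.

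Stra8, the retinoic acid-induced factor that starts the meiotic programme, gave a weak signal in every pool. Its probe read -3.01 and -3.27 on the null arrays, against -2.63 and -2.88 on the wild-type arrays, all marked well above background but not far over the lowest marked signal. In intensity units the spots read 15.5 and 30.0 in null pools, against 30.3 and 29.6 in wild-type pools. Both null pools lay below both wild-type pools, as did 23.0% of all tested probes. The difference of -0.38 with SE 0.23 did not pass (limma adjusted p = 0.80, 95% interval -0.99 to 0.22). Profiles nearest to it were those of Nxt2, Mob4 and Spopl (0.020, 0.031 and 0.032), but 5904 of the 11384 genes lay within 0.3, so this flat profile singles out none.

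Hormad1, an axis protein that guards unpaired chromosomes, was read differently by its probes. Probe A_51_P497875 gave -1.62 and -1.49 on the null arrays, against -1.27 and -2.31 on the wild-type arrays, all well above background. Probe A_51_P497870 gave no spot well above background, with -5.81 and -7.09 in null pools, against -4.90 and -6.37 in wild-type pools. By the first probe the null pools lay between the wild-type pools, with a difference of 0.23 and SE 0.40 (limma adjusted p = 0.95, 95% interval -0.84 to 1.30), which was -0.31 with scaling to spiked-in RNA. The positions of the probes within the transcript were not used here. Its nearest profiles were those of Lrrc51, Dtwd1 and the histidine decarboxylase gene Hdc (0.060, 0.062 and 0.11), with 276 genes within 0.3.

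Sycp1 and Dmc1 were at or under the background limit. The Sycp1 probe read -3.85 on null array 1 and -3.76 on null array 2, against -5.02 and -5.63 on the wild-type arrays, and null array 2 alone was well above background. No fold is given, since 3 of the 4 values were not measured. The Dmc1 probe read -5.08 and -7.01 on the null arrays, against -5.75 and -6.29 on the wild-type arrays, none above background, so no difference can be given. Dmc1 was not detectable at this signal, which does not show that the transcripts were absent.

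The wider meiotic programme was read through 71 further genes in 5 lists by role, of which 59 had a probe. Of these 59 genes, 35 were well above background on all arrays by some probe and 15 on none. All 13 cohesin and cohesin-regulator genes were above background on every array, and 9 of 20 recombination genes were. The genes of double-strand break formation and crossing over Spo11, Mei1, Mei4, Iho1, Msh4, Tex11 and Tex15 were above background on no array. The same held for the telomere attachment genes Terb1, Majin, Kash5 and Spdya, for the synaptonemal complex gene Tex12, and for the entry regulators Meioc, Rbm46 and Dmrt1.

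**Figure D3:**
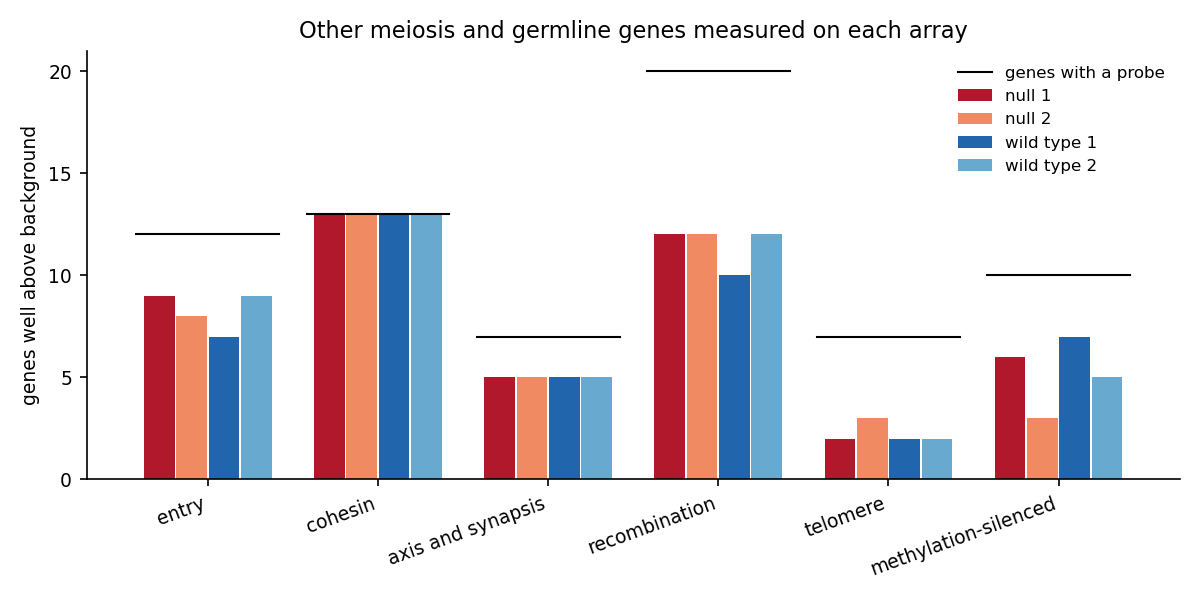
Number of genes with a probe well above background on each of the 4 arrays, by list, HP1γ-null in red and orange and wild type in blue, with a black line at the number of genes that have a probe. All 13 cohesin genes were measured on every array, 2 or 3 of 7 telomere genes, and 6 and 3 of 10 methylation-silenced germline genes on the null arrays, against 7 and 5 on the wild-type arrays.

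By the probe that stood for each gene, 19 of the 40 tested genes in the 5 lists were higher and 21 lower in null pools. Of these genes, limma called none in either direction, and none had an unadjusted p under 0.05. Their median difference was -0.02, against -0.06 over all tested probes. In 6 the genotypes did not overlap with null pools higher, and in 9 with null pools lower, against 15.1% and 23.0% of all tested probes, which is close to the same share of the 40. The median was -0.24 with null replicate 2 alone and 0.24 with null replicate 1 alone. Entry regulators numbered 8 tested, 5 higher and 3 lower, with a median of 0.05. The Polycomb subunit gene Pcgf6 differed by 0.42, the RNA helicase gene Ythdc2 by -0.41 and the transcription factor gene Taf4b by 0.79 (limma adjusted p = 0.75, 0.78 and 0.85). Taf4b differed by 1.48 with null replicate 1 alone and by 0.11 with null replicate 2 alone. These values count a Taf4b spot on wild-type array 1 that was not marked. The 5 genes of the Polycomb complex named above were examined together after their values were seen. All 9 of their probes were well above background on every array, with differences between -0.25 and 0.42 (lowest adjusted p = 0.75).

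Cohesin genes numbered 13 tested, 5 higher and 8 lower, with a median of -0.07. The loader gene Mau2 differed by -0.37, the regulator gene Pds5b by -0.34 and Smc3, which pairs with both Smc1a and Smc1b, by 0.24 (limma adjusted p = 0.76, 0.79 and 0.86). The probes of the cohesin gene Stag2 differed in size. The one that stood for the gene gave -0.22, and A_51_P126540 gave -0.63 (limma unadjusted p = 0.032, adjusted p = 0.62). Of 5 tested axis and synaptonemal complex genes 2 were higher and 3 lower, and all 5 were highest on null array 1 and lowest on null array 2. Syce1, a central element protein, read 0.64 and -7.13 on the null arrays, the second not well above background, against -1.76 and -3.07 on the wild-type arrays. Fkbp6 read 2.68 and -3.84, against 0.47 and -0.14. Syce2, another central element protein, read 3.97 and 2.58, against 2.97 and 2.80. Their differences of -0.83, -0.75 and 0.39 had SEs of 2.65, 2.21 and 0.51 (limma adjusted p = 0.98, 0.98 and 0.93). The order of the arrays was again that of most germ cell markers.

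Recombination genes numbered 12 tested, 6 in each direction, with a median of 0.03. Psmc3ip, a cofactor of Dmc1, differed by 0.39, Rec114, a break formation gene, by 0.40 and Msh5, a crossover gene, by -0.56 (limma adjusted p = 0.78, 0.80 and 0.79). Msh5 was not well above background on null array 1, so -0.56 counts an unmarked value. With null replicate 2 alone Msh5 differed by -0.29. Of the telomere list the nuclear envelope genes Sun1 and Sun2 were tested and differed by 0.10 and -0.23 (limma adjusted p = 0.98 and 0.86). In the list of germline genes that promoter methylation silences in somatic cells, which shares 4 genes with the germ cell markers, 5 were tested, 1 higher and 4 lower, with a median of -1.50. That median was 1.22 with null replicate 1 alone and below 0 with null replicate 2 alone, where Mael, Ddx4 and Tex19.1 were not marked. Tdrd1, of the piRNA pathway, differed by 1.20, Mael by -2.52 and the helicase gene Ddx4 by -2.47 (limma adjusted p = 0.64, 0.82 and 0.89). With null replicate 1 alone Tdrd1 differed by 1.70, Mael by -0.17 and Ddx4 by 1.22. Mael read -2.41 and -7.11 in null pools, against -1.31 and -3.16 in wild-type pools, and Ddx4 read 0.66 and -6.73, against 0.19 and -1.32.

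**Figure D4:**
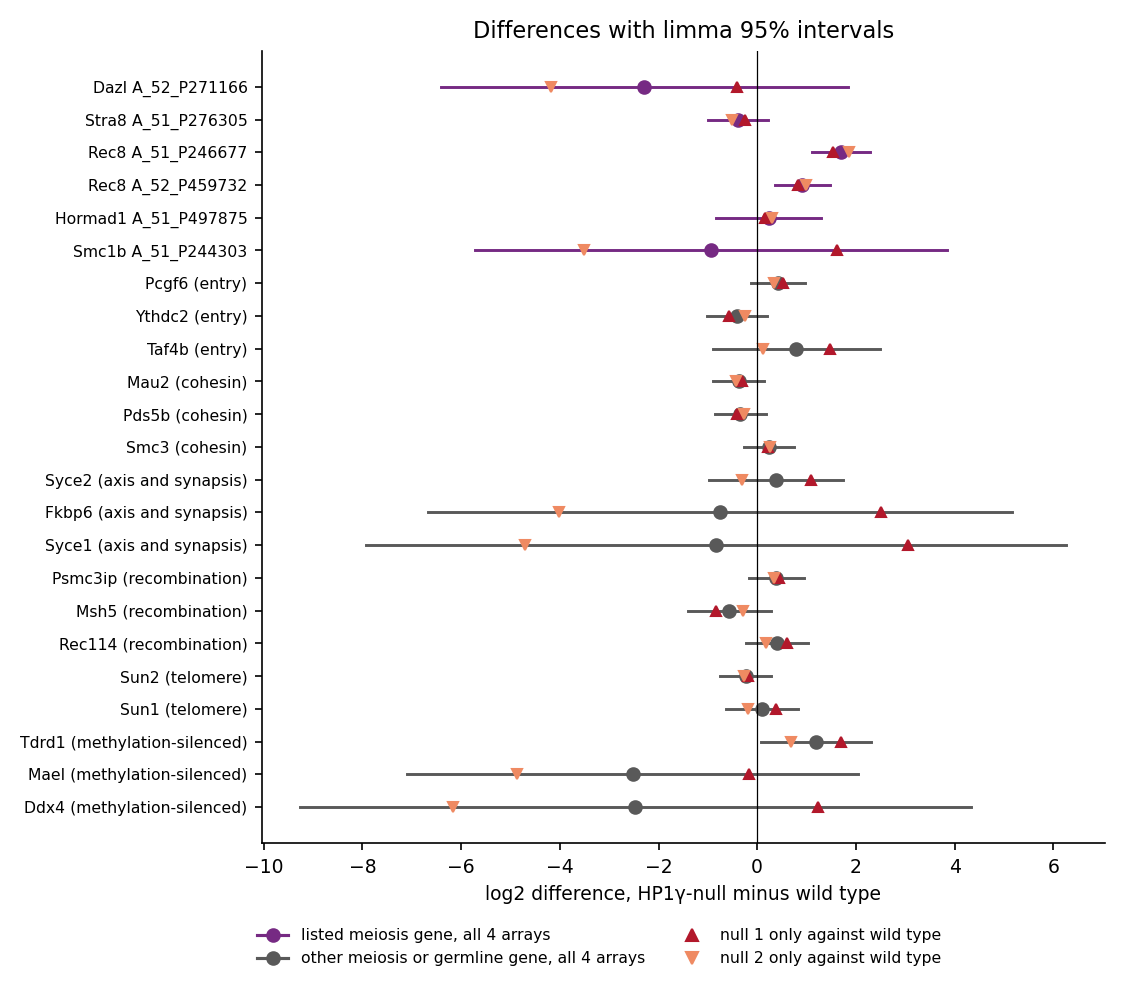
Log2 difference of HP1γ-null minus wild type for the 6 tested probes of the listed meiosis genes (purple) and for 17 other meiosis and germline genes (grey), with 95% limma intervals not adjusted for multiple testing, and triangles for each null array alone against both wild-type arrays. The triangles lie close together for Rec8 (1.53 and 1.86) and far apart on both sides of 0 for Smc1b (1.63 and -3.50), Syce1 and Fkbp6. Values of null array 2 for Dazl, Smc1b, Syce1, Mael and Ddx4 come from unmarked spots, as do those of null array 1 for Msh5 and wild-type array 1 for Taf4b.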

How the data were processed

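Per the file headers, Agilent Feature Extraction 10.7.3.1, also named in the submitters' processing notes, made the intensity values: background and spatial trends were subtracted on every array, and arrays were not scaled to one another. A deposited table of values held these intensity values rounded (within 0.50%). The array design used another assembly, so probes carry no coordinates here.

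Computed here were log2 processed signals minus each array's 75th percentile over 43379 spots that are not controls. Outlier spots were left out, which removed 21 of 41174 probes. RefSeq accessions (GRCm38.p6) named 26888 probes. The 22440 probes that passed the background mark on both arrays of either genotype were tested with limma 3.58.1 in R 4.3.3 (lmFit, eBayes, two-sided, threshold 0.05 after Benjamini-Hochberg adjustment across these probes, no covariate), with 2 residual degrees of freedom and a prior of 2.43. The script was tested on simulated data. For list genes the probe of highest mean level, tested where possible, stood for the gene. Named genes are all members, the called or else the 3 genes of smallest p in each list, and the 3 nearest profiles. Members and lists were chosen with earlier results of these data known. Replicates are separate embryo pools, and 4 arrays limit the precision.

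Alternatives were quantile, median and spiked-in scaling, normexp (offset 50, on median signals, as the files hold no mean signal), 3 other filters, a variance trend, array weights, a replicate block, each array left out and the deposited table. Holding unmarked spots at the lowest marked signal was added after seeing the data. Tools also were Python 3.11.15 and pandas 2.3.3.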

Additional observations from a re-analysis of the deposited data

How the results depend on the processing

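No probe of the 8 meiosis genes passed the threshold under any alternative that tested it (Dazl and Smc1b were not tested where all arrays had to be above background). The Rec8 differences kept their sign in all of them, between 1.15 and 1.86 by the brighter probe and between 0.37 and 1.01 by the dimmer (adjusted p 0.094 to 1.00 and 0.13 to 1.00), as did Dazl, between -4.17 and -0.41, and Stra8, between -0.93 and -0.11. With 1 array left out in turn, the difference ranged from -0.29 to 0.75 for Hormad1, -3.50 to 1.63 for Smc1b, -0.31 to 1.08 for Syce2, -4.01 to 2.52 for Fkbp6, -4.71 to 3.06 for Syce1, -0.18 to 0.38 for Sun1 -6.16 to 1.22 for Ddx4, -4.87 to -0.17 for Mael and 0.11 to 1.48 for Taf4b, and the median of the 5 lists from -0.24 to 0.24. The lower ends for Dazl, Smc1b, Syce1, Mael and Ddx4 rest on unmarked spots of null array 2. With unmarked spots held at each array's lowest marked signal, an alternative chosen after seeing the data, Syce1 was 0.31, Dazl -1.76, Mael -1.39, Ddx4 -1.53 and Taf4b 0.36, and 0 probes were called (limma, 1545 at an unadjusted p under 0.05). Scaling to spiked-in RNA moved that median to -0.57 and gave -0.31 for Hormad1, -0.12 for Pcgf6, -0.31 for Smc3, -0.16 for Syce2, -0.16 for Psmc3ip, -0.15 for Rec114 and -0.45 for Sun1, below 0 as was the median of all probes at -0.61. Normexp gave 0.35 for Syce1, 0.00070 for Msh5, -0.62 for Mael, -0.59 for Ddx4, 0.39 for Tdrd1 and 0.15 for Taf4b, which spiked-in scaling put at 0.25. The cause of these turns was not tested. The number of probes called, 2, became 146 with spiked-in scaling, 7 with a variance trend, 5 with array weights, 1 with probes above background on all arrays, and 0 with no filter or with at least 1 array above background, where more probes are tested (limma, 1474 and 1719 at an unadjusted p under 0.05). It was 0 without any single array, with fewer samples (607 to 5644 unadjusted). With the replicate block it was 13, none of them a probe of the 8 genes, and the Rec8 difference stayed 1.69 (adjusted p = 0.18). Same-numbered arrays deviated together at r = 0.066 across probes, and nothing in the labels ties the numbers, so they name arrays only. Signal near background limits Stra8, Sycp1, Dmc1 and the second probes of Dazl and Hormad1.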

Other observations

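A pair of genes of the meiosis lists stood out on 1 array each, and both were chosen after their values were seen. Terb2, which helps to tether telomeres to the nuclear envelope in meiosis, read -5.85 on null array 1 and -1.52 on null array 2, against -5.87 and -6.41 on the wild-type arrays, and null array 2 alone was well above background. Msx2, a homeobox gene that responds to bone morphogenetic protein signals and promotes meiotic entry in mice, read -0.44 on null array 1 and -6.90 on null array 2, against -4.32 and -4.00 on the wild-type arrays. It was above background on null array 1 and wild-type array 2. Neither gene was tested, and no other array repeats the high value.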
